A study of Mus musculus with 3 samples.

Results

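The integrin and laminin genes comprise 41 protein-coding genes among the 20661 on mouse chromosomes 1 to 19 in the RefSeq annotation of build mm10. They were chosen by symbol alone, as the genes whose symbol begins with Itga or Itgb or is Lama, Lamb or Lamc followed by digits, and the rule uses no measured value. The rule took in 18 integrin alpha genes, 9 integrin beta genes, 5 laminin alpha genes, 3 laminin beta genes and 3 laminin gamma genes. It also took in 3 genes whose products are not subunits, Itgb1bp1, Itgb3bp and Itgbl1. All 41 stay in every count below.

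DNA methylated at the 5 position of cytosine (5mC) was mapped in cardiomyocytes by methylated DNA immunoprecipitation and sequencing, in which an antibody against 5mC enriches methylated fragments. The TAC library (transverse aortic constriction, a surgical model of pressure overload) came from mice under overload for 1 week, per the series title, and the Sham library from the sham group. Both groups were male C57Bl6/J mice aged 8 weeks, and a sequencing service did the immunoprecipitation and library work, per the labels. There was 1 library for each group, the labels do not state how many animals went into it, and an Input library made without antibody served in the peak calling and was not analysed further.

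Integrins are cell surface receptors made of an alpha and a beta subunit, and they tie the extracellular matrix or other cells to the actin cytoskeleton. Laminins are trimers of an alpha, a beta and a gamma chain and form the basement membrane that wraps each cardiomyocyte. In heart muscle the alpha2 laminin chain and the integrin formed by the alpha7 and beta1 subunits sit at the sarcolemma beside the Z discs, where contractile force passes to the matrix.

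The TAC list held 162107 peaks from 14658177 tags and the Sham list 135886 peaks from 12585289 tags, per the file headers. Of the tags, 34.67% in the TAC library and 29.88% in the Sham library lay in peaks. The lists give positions and no signal, so a gene is described by how many peaks have their midpoint in its body, how wide they are, and whether they are shared, that is, whether at least 1 bp of them also lies in a peak of the other list. The row fraction is a peak's row number divided by the rows of its list. No source used here says what orders the rows. Peaks in the first 10% of either list were shared in 98.4% of cases, and those in the last 10% were shared in 22.7% of cases in TAC and 39.5% in Sham. With 1 library per group no test between conditions exists, and every interval below is an exact (Clopper-Pearson) 95% binomial interval that covers counting error only.

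The promoter windows available for these genes, like those of all genes, lay almost wholly outside the peaks. RefSeq promoter windows on GRCm38.p6, running from 250 bases before to 50 bases after a transcript start, were at hand for 27 of the 41 members, in 30 windows. None of the 30 lay under a TAC peak and 1, that of Itgax, lay under a Sham peak. The windows do not include every annotated gene start. Those of Lamb3 lie inside the gene, and its annotated start, chr1:193294353, lay in the Sham peak chr1:193294268-193295360. The overlapping TAC peak, chr1:193294877-193295377, began past that start. Among all 20084 windows 3.5% lay under a TAC peak, 3.25% under a Sham peak and 4.84% under a peak of either library. The member windows held a median of 11 CpG dinucleotides, against 14 over all windows, and 17 of the 30 held 10 or more. Of all windows with 10 or more CpGs 3.54% lay under a peak of either library, and of those with fewer than 10 CpGs 6.64% did. Members without a window included Itga6, Itga7, Itgad, Itgae, Itgal, Itgb2, Itgb3, Itgb4, Lama1, Lama3, Lama4, Lamc1 and Lamc3. Itgax is shown because its window is the 1 that a peak reached. Itgav and Itgb1 were chosen after their values were seen, as windows rich in CpGs with peaks at different distances. The sequences run 5′ to 3′ on the plus strand, from RefSeq, with each CpG in capitals.
Itgax, chr7:128129300-128129599: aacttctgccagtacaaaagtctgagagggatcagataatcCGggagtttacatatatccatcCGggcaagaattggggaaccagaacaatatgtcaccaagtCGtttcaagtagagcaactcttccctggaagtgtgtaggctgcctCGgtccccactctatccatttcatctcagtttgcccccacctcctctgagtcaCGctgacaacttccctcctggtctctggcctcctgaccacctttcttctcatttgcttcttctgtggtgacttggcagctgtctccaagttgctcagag
Itgav, chr2:83724147-83724446: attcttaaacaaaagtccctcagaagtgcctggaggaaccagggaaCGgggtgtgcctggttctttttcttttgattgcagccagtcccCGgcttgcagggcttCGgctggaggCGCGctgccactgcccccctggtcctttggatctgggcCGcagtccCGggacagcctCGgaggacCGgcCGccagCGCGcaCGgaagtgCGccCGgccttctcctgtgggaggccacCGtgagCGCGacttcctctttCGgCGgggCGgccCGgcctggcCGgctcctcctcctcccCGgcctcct
Itgb1, chr8:128685404-128685703: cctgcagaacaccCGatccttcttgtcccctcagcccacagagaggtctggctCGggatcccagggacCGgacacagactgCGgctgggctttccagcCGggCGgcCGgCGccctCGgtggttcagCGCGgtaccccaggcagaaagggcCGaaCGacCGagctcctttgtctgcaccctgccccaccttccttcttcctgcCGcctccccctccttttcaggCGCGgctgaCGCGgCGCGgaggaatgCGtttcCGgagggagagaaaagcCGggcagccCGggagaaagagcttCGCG

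Itgax encodes the alpha subunit of a complement receptor of dendritic cells and macrophages, and its window held 5 CpGs. The TAC peak chr7:128129608-128130242 began 9 bp beyond the window, and the Sham peak chr7:128129585-128130213 reached 15 bp into it. Those 15 bp hold 0 CpGs. The TAC and Sham peaks at the Itgax start overlapped by 606 bp, and the lists give no signal by which to compare them. Itgav encodes the alpha subunit of the vitronectin receptor family, and its window held 24 CpGs. The nearest TAC peak lay 458 bp away and the nearest Sham peak 33 bp away, and these peaks overlapped each other upstream of the window, between it and the annotated gene start. Itgb1 encodes the beta1 subunit, the common partner of most matrix-binding alpha subunits, and its window held 27 CpGs. The nearest TAC peak to it lay 1989 bp away and the nearest Sham peak 14022 bp away. For Itga1, with 12 CpGs, the nearest TAC peak lay 156 bp away and the nearest Sham peak 925 bp away. For Itgb5, with 20 CpGs, these distances were 4902 bp in TAC and 397 bp in Sham.

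**Figure D1:**
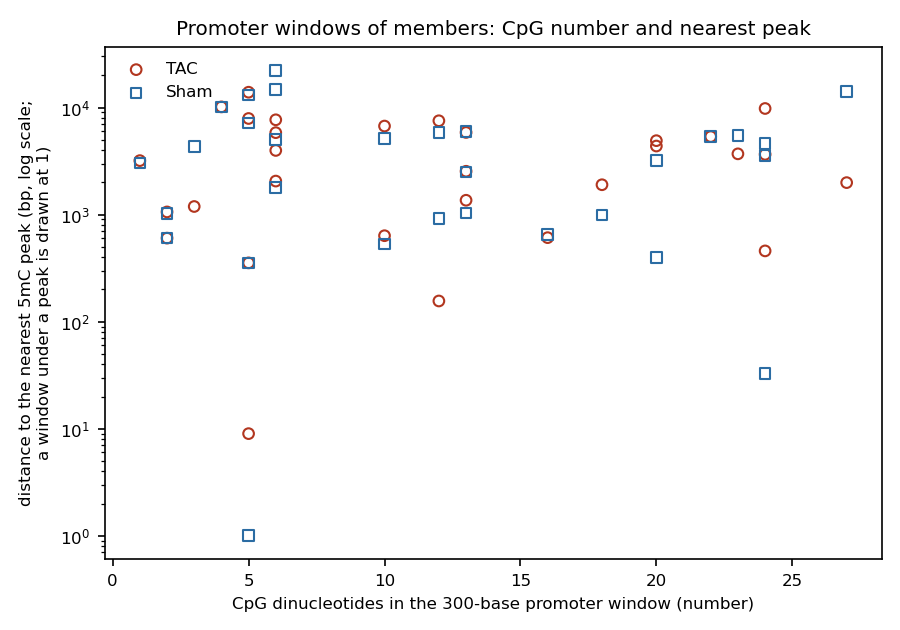
Distance in bp (log scale) from each of the 30 promoter windows of the members to the nearest TAC peak (circles) and Sham peak (squares), against the number of CpGs in the window. The Itgax window is the only one under a peak (Sham, drawn at 1), and its TAC peak lies 9 bp away.

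Gene bodies carried peaks in nearly all members. They are far longer than the promoter windows, so their share with a peak is not comparable with that of the windows. A peak of either library lay in 39 of the 41 (95.1%), against 66% of all genes. The exceptions were Lamb2, which encodes the laminin beta2 chain of neuromuscular and glomerular basement membranes, and Itgb8, which encodes a beta subunit that pairs with alphav. The members are long genes, with a median length of 61.8 kb against 17.5 kb over all genes. Per length they held 7.46 TAC peaks and 7.23 Sham peaks per 100 kb, and all genes held 6.81 TAC and 6.38 Sham peaks per 100 kb.

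The members held 291 TAC peaks and 282 Sham peaks, a ratio of 1.03 (interval 0.873 to 1.22). Over all genes the ratio was 1.07, from 68222 TAC and 63951 Sham peaks, with a peak in overlapping genes counted for each. More TAC than Sham peaks lay in 16 members (41% of the 39 with a peak), against 39.2% of all genes with a peak. Fewer TAC peaks lay in 14 members (35.9%), against 33.4% of all genes with a peak, and 9 members had equal numbers. In the 12 members of 100 kb or longer the ratio was 1.11 (0.888 to 1.38), against 1.12 over all genes of that length. In the 29 shorter members it was 0.936 (0.721 to 1.21), against 0.999 over all shorter genes. The balance of the libraries in these genes thus lay within counting error of that in other genes of like length.

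**Figure D2:**
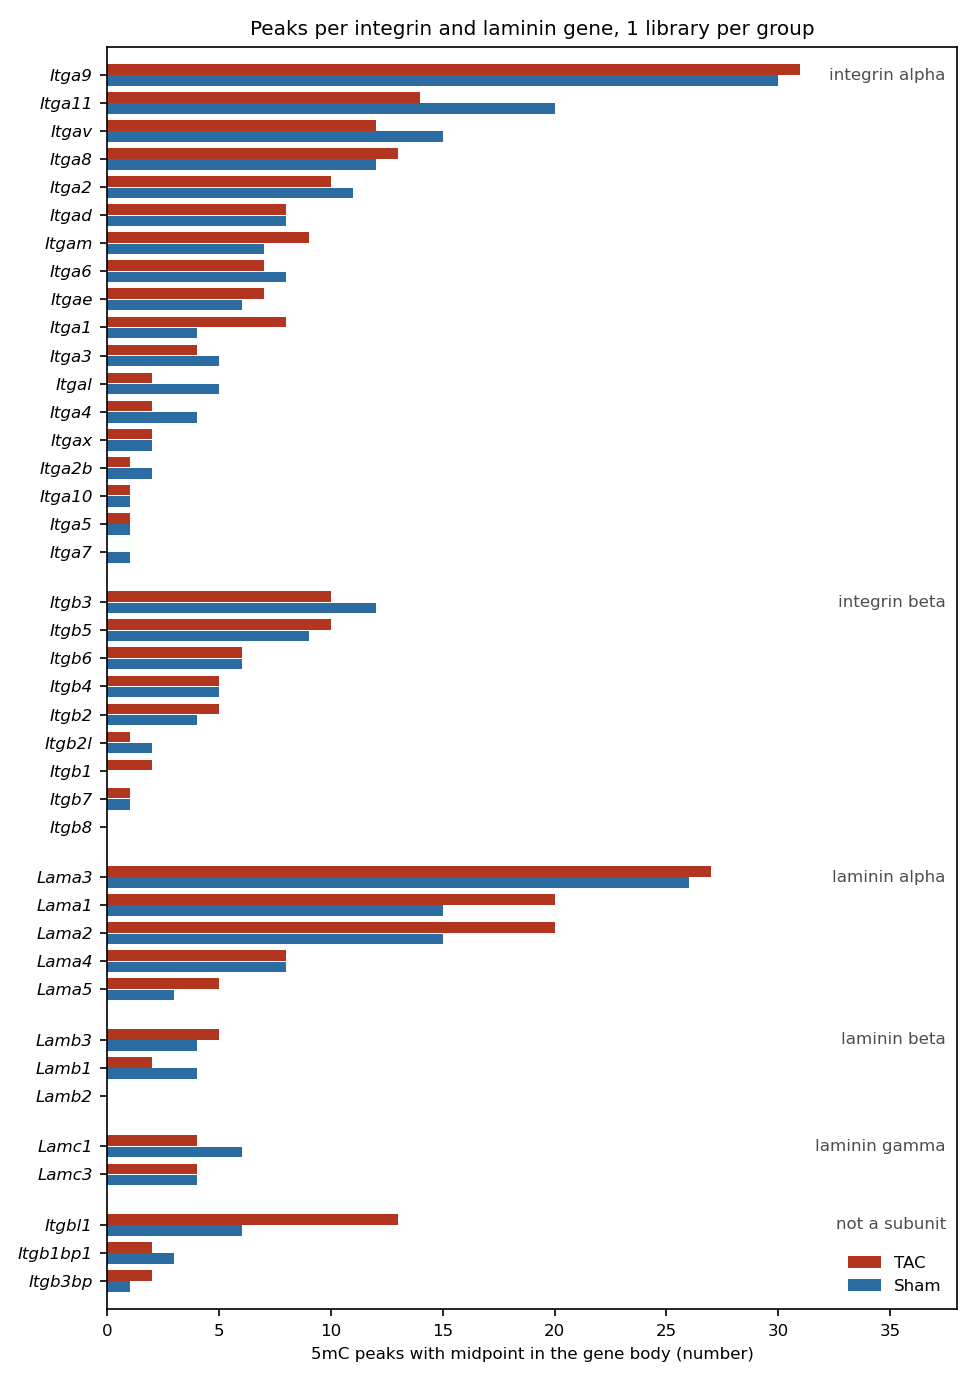
Number of 5mC peaks with their midpoint in the body of each member reported by name, for the TAC library (upper bar) and the Sham library (lower bar), grouped by role. The bars are close to equal for most genes, and Itga1 (8 TAC and 4 Sham peaks) and Itgbl1 (13 TAC and 6 Sham peaks) are exceptions.

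A margin of at least 1.5-fold was required of genes with at least 5 peaks in both libraries together, a rule that 30 members could meet. More TAC peaks by that margin lay in 3 members (10%), against 23.6% of all genes with 5 peaks. These were Itga1, Lama5 and Itgbl1. Fewer TAC peaks lay in 5 members (16.7%), against 17.2% of all such genes. These were Itga4, Itgal, Lamb1, Lamc1 and Itgb1bp1. The interval of the TAC share of peaks included 50% in each of these 8 genes, so none stood outside counting error alone. Itga1, Itgbl1, Itga4 and Itgb1bp1 overlap another protein-coding gene, whose peaks cannot be told apart from theirs. Without such genes 1 member with more and 3 with fewer TAC peaks were left. With the first 50% of rows of each list 23 members had 5 peaks, and 6 of them had more and 2 fewer TAC peaks, against 938 with more and 762 with fewer of 3874 genes. The smaller share of members with more TAC peaks in the full lists was thus not seen in these rows.

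The integrin alpha genes, which give a receptor its ligand, held 132 TAC and 142 Sham peaks, a ratio of 0.930 (0.728 to 1.19). Per length these were 9.48 TAC and 10.2 Sham peaks per 100 kb. Of the 18 genes, 5 had more TAC peaks, 9 had fewer and 4 had equal numbers. Of all genes with a peak 39.2% had more and 33.4% had fewer.

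Among the collagen receptors, with 33 TAC and 36 Sham peaks, Itga1 and Itga11 differed in opposite directions. Itga1, on chr13:114958079-115101964, held 8 TAC and 4 Sham peaks, and TAC peaks made up 66.7% of them (34.9 to 90.1%). All 4 Sham peaks were shared, and the other 4 TAC peaks lay in the middle of the gene, at chr13:115008164-115042166, with row fractions of 0.534 to 0.809. Itga11, which encodes a collagen receptor of fibroblasts and lies on chr9:62677855-62783979, held 14 TAC and 20 Sham peaks, and TAC peaks made up 41.2% (24.6 to 59.3%). Every TAC peak in Itga11 was shared, and 6 Sham peaks were not. The Sham peaks without a TAC partner were 501 to 661 bp wide with row fractions of 0.411 to 0.983, so they came from the middle and end of the Sham list. Itga2, the collagen receptor of platelets, held 10 TAC and 11 Sham peaks. Itga10, a collagen receptor of cartilage, held 1 peak in each library, and these did not overlap.

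The laminin receptors are short genes and held 16 TAC and 19 Sham peaks, 9.85 TAC and 11.7 Sham peaks per 100 kb, more per length than the members as a whole. They are Itga3, Itga6, Itga7 and Itgb4, the hemidesmosome partner of alpha6. Itga7, which encodes the laminin-binding alpha subunit of striated muscle, held 0 TAC peaks and 1 Sham peak, of 501 bp and with a row fraction of 0.936. Itga3 held 4 TAC and 5 Sham peaks, and Itga6 held 7 TAC and 8 Sham peaks. None of these 4 genes had more TAC peaks, where 39.2% of all genes with a peak did. Their ratio of 0.842 (0.405 to 1.73) had an interval that included the 1.07 of all genes.

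The alpha subunits that bind the RGD motif of fibronectin and vitronectin held 27 TAC and 30 Sham peaks, and Itgav had the widest peaks of any member. Itgav, on chr2:83722303-83806917, held 12 TAC and 15 Sham peaks, and TAC peaks made up 44.4% of them (25.5 to 64.7%). Its peaks covered 14713 bp in the TAC list and 23258 bp in the Sham list. A TAC peak at chr2:83730119-83731350 and a Sham peak at chr2:83730289-83731368 overlapped, each with a row fraction of 0.001, so both libraries listed this site near the top. The widest peaks were a TAC peak of 2576 bp and a Sham peak of 5463 bp at different sites. The Sham peak of 5463 bp, chr2:83752628-83758090, was met in the TAC list by peaks of 501 and 2294 bp with row fractions of 0.712 and 0.042. The Sham list thus held 1 broad peak where the TAC list held separate pieces. In Itgav 2 TAC peaks and 6 Sham peaks were unshared. Itga8, a nephronectin receptor, held 13 TAC and 12 Sham peaks. Itga5, the fibronectin receptor subunit, held 1 peak in each library, and these overlapped. Itga2b, the platelet fibrinogen receptor subunit, held 1 TAC and 2 Sham peaks.

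Itga9 and Itga4 encode closely related subunits that bind, among others, tenascin C and VCAM1. Itga9, the member with most peaks, held 31 TAC and 30 Sham peaks over 294.3 kb, of which 23 in each library were shared. Itga4 held 2 TAC and 4 Sham peaks. Both TAC peaks in Itga4 were shared, and the 2 unshared Sham peaks were 501 bp wide with row fractions of 0.567 and 0.796.

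As grouped here, the leukocyte integrins held the most peaks per length of the receptor groups, though not in every gene. Itgal in TAC (5.13 per 100 kb) and Itgb7 in both libraries (5.74 per 100 kb) lay below the members as a whole. The other values of the group lay above. Itga4 was grouped with Itga9 and is not counted here. Itgad, Itgae, Itgal, Itgam and Itgax with their partners Itgb2 and Itgb7 held 34 TAC and 33 Sham peaks, 13.2 TAC and 12.8 Sham peaks per 100 kb. Itgad, which overlaps Cox6a2, held 8 peaks in each library, 25.3 per 100 kb, the highest density of any member in either library. Its broad peak at chr7:128186490-128188945 in TAC and chr7:128186336-128188929 in Sham had row fractions of 0.003 in TAC and 0.004 in Sham. The site thus ranked near the top of both lists and had nearly the same edges. Itgal, the alpha subunit of the ICAM receptor of lymphocytes, held 2 TAC and 5 Sham peaks, and TAC peaks made up 28.6% (3.67 to 71.0%). A Sham peak of 1413 bp at the Itgal start had its midpoint inside the gene. The TAC peak that overlapped it was 501 bp wide with its midpoint outside the gene, so it was not counted. Itgam, the macrophage and neutrophil subunit, held 9 TAC and 7 Sham peaks, Itgae, the E-cadherin receptor, 7 TAC and 6 Sham peaks, and Itgax 2 in each library. Itgb2 held 5 TAC and 4 Sham peaks, and Itgb7 1 in each library.

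The integrin beta genes held 40 TAC and 39 Sham peaks, a ratio of 1.03 (0.643 to 1.64). Itgb1, on chr8:128685654-128733579, held 2 TAC peaks and no Sham peak. These peaks were 501 bp wide with row fractions of 0.596 and 0.924, and no Sham peak overlapped them. Itgb3, the beta subunit of the vitronectin receptor and of the platelet fibrinogen receptor, held 10 TAC and 12 Sham peaks, of which 9 in each library were shared. Its peak at chr11:104629075-104630028 in TAC and chr11:104629083-104630024 in Sham had row fractions of 0.004 in TAC and 0.005 in Sham. The shared pattern in Itgb3 was thus close in position, and the unshared peaks had row fractions of 0.345 or more. Itgb5 held 10 TAC and 9 Sham peaks. Itgb6, whose alphav partner releases latent TGF-beta in epithelia, held 6 in each library, of which 2 were shared. Itgb4 held 5 in each library. Itgb2l, a paralog of Itgb2, held 1 TAC and 2 Sham peaks.

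**Figure D3:**
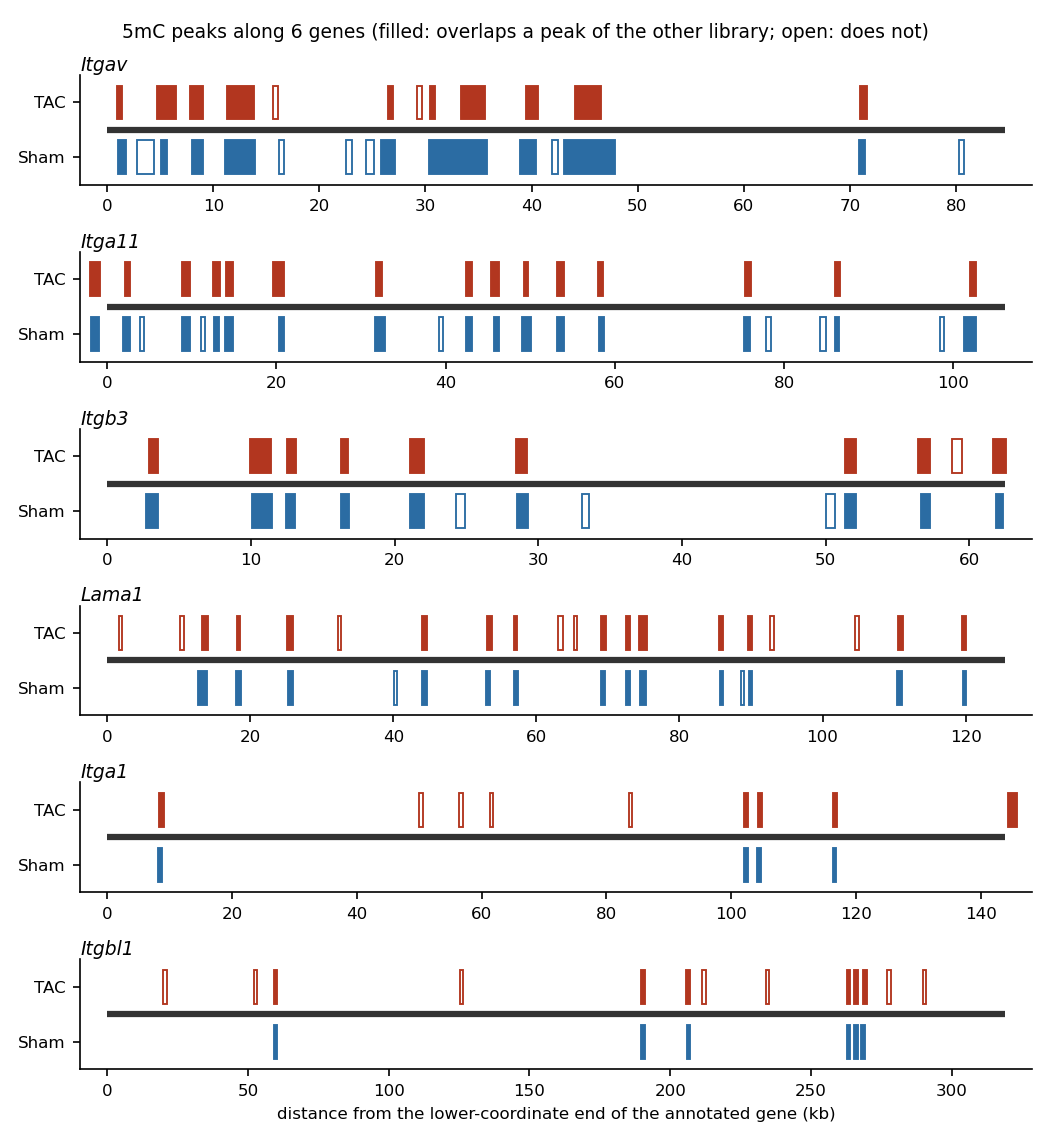
Positions of TAC peaks (above the gene line) and Sham peaks (below it) along Itgav, Itga11, Itgb3, Lama1, Itga1 and Itgbl1, in kb from the lower-coordinate end of the annotated gene. Peaks just past a gene end are drawn too. Filled boxes overlap a peak of the other library and open boxes do not: all 14 TAC peaks with midpoint in Itga11 are filled, as are all 6 Sham peaks of Itgbl1.

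The laminin alpha genes, which encode the chains that bind the receptors, held 80 TAC and 67 Sham peaks, a ratio of 1.19 (0.852 to 1.68). Of the 5 genes, 4 had more TAC peaks, none had fewer and Lama4 had 8 in each library. Of all genes with a peak 39.2% had more TAC peaks. The laminin alpha genes are long, with a median of 144.7 kb. The interval of their ratio included the 1.12 of all genes of 100 kb or longer. Among all genes of that length, 1359 of the 2305 with a peak had more TAC peaks and 710 had fewer. Lama2, the alpha chain of the muscle basement membrane, lies on chr10:26981285-27617191 and held 20 TAC and 15 Sham peaks. Over its 635.9 kb these were 3.15 TAC and 2.36 Sham peaks per 100 kb, fewer per length than the members as a whole. In Lama2 10 TAC peaks and 5 Sham peaks were unshared. Lama1, the alpha chain of embryonic basement membranes, lies on chr17:67697127-67822645 and also held 20 TAC and 15 Sham peaks, 15.9 TAC and 12.0 Sham peaks per 100 kb. In Lama1 7 TAC peaks and 2 Sham peaks were unshared, and TAC peaks made up 57.1% of its peaks (39.4 to 73.7%). The unshared TAC peaks of Lama1 had row fractions of 0.402 to 0.990. Lama3, the alpha chain of skin basement membrane, held 27 TAC and 26 Sham peaks, with 10 unshared in each library. Lama5, an alpha chain found in many epithelial and vascular basement membranes, held 5 TAC and 3 Sham peaks, of which 2 in each library were shared. The TAC share in Lama5 was 62.5% (24.5 to 91.5%).

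The laminin beta genes held 7 TAC and 8 Sham peaks. Lamb1 and Lamc1 encode the chains most often joined to alpha2 in muscle. Lamb1 held 2 TAC and 4 Sham peaks, and both TAC peaks were shared. Lamc1, on chr1:153218922-153332786, held 4 TAC and 6 Sham peaks, of which 1 in each library was shared. Its 3 unshared TAC peaks had row fractions of 0.619 to 0.969 and its 5 unshared Sham peaks 0.332 to 0.564. A second overlapping pair, chr1:153332913-153333541 in TAC and chr1:153332891-153333391 in Sham, lay just past the annotated gene end and was not counted in the body. Lamb3, a chain joined to alpha3 in skin, held 5 TAC and 4 Sham peaks. Lamc3 held 4 in each library.

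The 3 members that are not subunits held 17 TAC and 10 Sham peaks, a ratio of 1.70 (0.735 to 4.15). Most came from Itgbl1, a secreted protein with integrin-like EGF repeats, on chr14:123659937-123978865. It held 13 TAC and 6 Sham peaks, and TAC peaks made up 68.4% (43.4 to 87.4%). All 6 Sham peaks were shared and 7 TAC peaks were not, with row fractions of 0.170 to 0.987. Itgbl1 overlaps Fgf14, and peaks in the overlap were counted for both. Itgb1bp1, whose product binds the beta1 tail, held 2 TAC and 3 Sham peaks. Itgb3bp, whose product is also a centromere protein, held 2 TAC peaks and 1 Sham peak.

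Of the 291 TAC peaks 193 were shared (66.3%, 60.6 to 71.7%), and of the 282 Sham peaks 193 were (68.4%, 62.7 to 73.8%). Over all genes 60.1% of TAC peaks and 63.8% of Sham peaks were shared. The 98 unshared TAC peaks and 89 unshared Sham peaks gave a ratio of 1.10 (0.818 to 1.48), against 1.18 over all genes. The share was higher in integrin than in laminin genes: 73.3% of TAC and 70.2% of Sham peaks were shared in the 27 integrin subunit genes, and 57.8% of TAC and 63.7% of Sham peaks in the 11 laminin genes. The laminin intervals, 47.7 to 67.6% in TAC and 53.0 to 73.6% in Sham, overlapped those of the integrin genes, 66.0 to 79.7% in TAC and 62.9 to 76.7% in Sham.

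**Figure D4:**
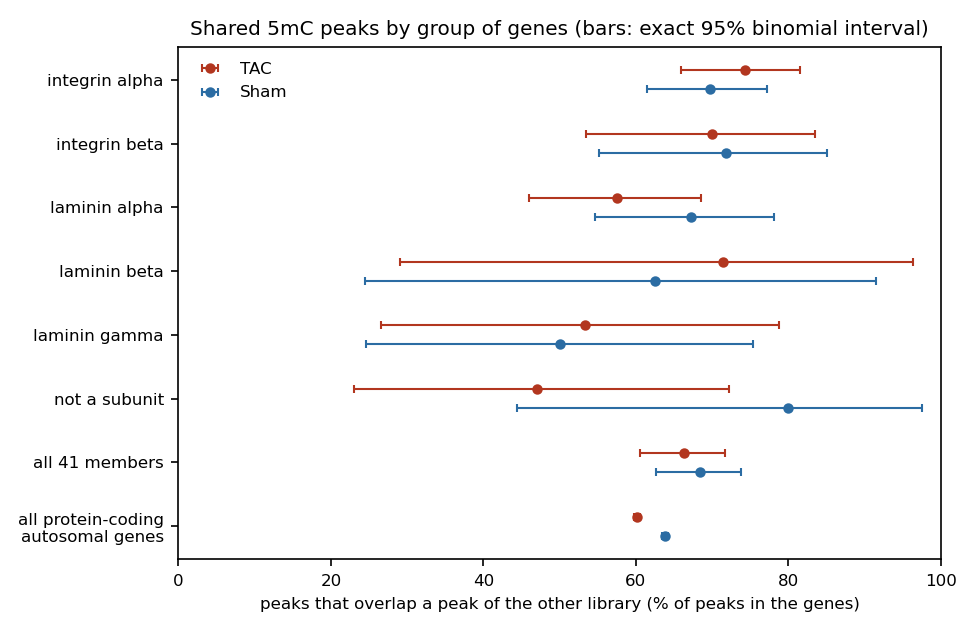
Percentage of peaks shared with the other library, for TAC (upper point) and Sham (lower point), in each role group, all members and all genes, with exact 95% binomial intervals. Laminin alpha genes (57.5% of TAC and 67.2% of Sham peaks) sit below integrin alpha genes (74.2% of TAC and 69.7% of Sham peaks), with overlapping intervals.

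Most unshared peaks were narrow. A width of 501 bp, the most common in the lists, was that of 84 of the 98 unshared TAC peaks and 70 of the 89 unshared Sham peaks. A peak of the other library lay within 2 kb of 23 unshared TAC peaks and of 31 unshared Sham peaks. Over 10 kb separated 21 unshared TAC peaks and 14 unshared Sham peaks from the other library. Over all peaks the mean width in the members was 672 bp in TAC and 719 bp in Sham, against 644 bp in TAC and 670 bp in Sham over all genes. The summed width was 195.6 kb in TAC and 202.7 kb in Sham. The members thus held more TAC peaks but slightly less TAC peak length, a ratio of 0.965 against 1.02 over all genes. Itgav alone held 14713 bp in TAC and 23258 bp in Sham, a wider gap than that of all members together. The lower length in TAC is therefore not a trait of the members at large.

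The median member peak stood somewhat earlier in its list than that of all genes, but this did not hold in every role group. The median row fraction was 0.415 in TAC and 0.423 in Sham, and over all genes it was 0.487 in TAC and 0.475 in Sham. In the integrin alpha genes the median was earlier, at 0.327 in TAC and 0.411 in Sham. It was also earlier in both libraries in the integrin beta, laminin beta and laminin gamma genes. In the laminin alpha genes it was later, at 0.517 in TAC and 0.519 in Sham. The members that are not subunits also had later medians, 0.608 in TAC and 0.652 in Sham. In the first 10% of rows stood 45 of 291 member TAC peaks (15.5%) and 45 of 282 member Sham peaks (16.0%), against 10.9% and 11.0% over all genes in TAC and Sham. The integrin alpha genes held 29 of these 45 member peaks in TAC and 26 of the 45 in Sham. Shared member peaks had a median row fraction of 0.267 in TAC and 0.275 in Sham, and unshared ones of 0.694 in TAC and 0.696 in Sham. Over all genes the unshared peaks had medians of 0.699 in TAC and 0.682 in Sham. No unshared member peak stood in the first 10% of either list, and the earliest had a row fraction of 0.154 in TAC and 0.109 in Sham. Over all genes 0.385% of unshared TAC peaks and 0.646% of unshared Sham peaks stood in the first 10%, so the late position of unshared peaks was not particular to the members. Over the 194 overlapping pairs the row fractions had a Spearman correlation of 0.761, a description over pairs that share genes and libraries. Of these pairs 77 were wider in TAC, 67 were wider in Sham and 50 were equal in width.

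**Figure D5:**
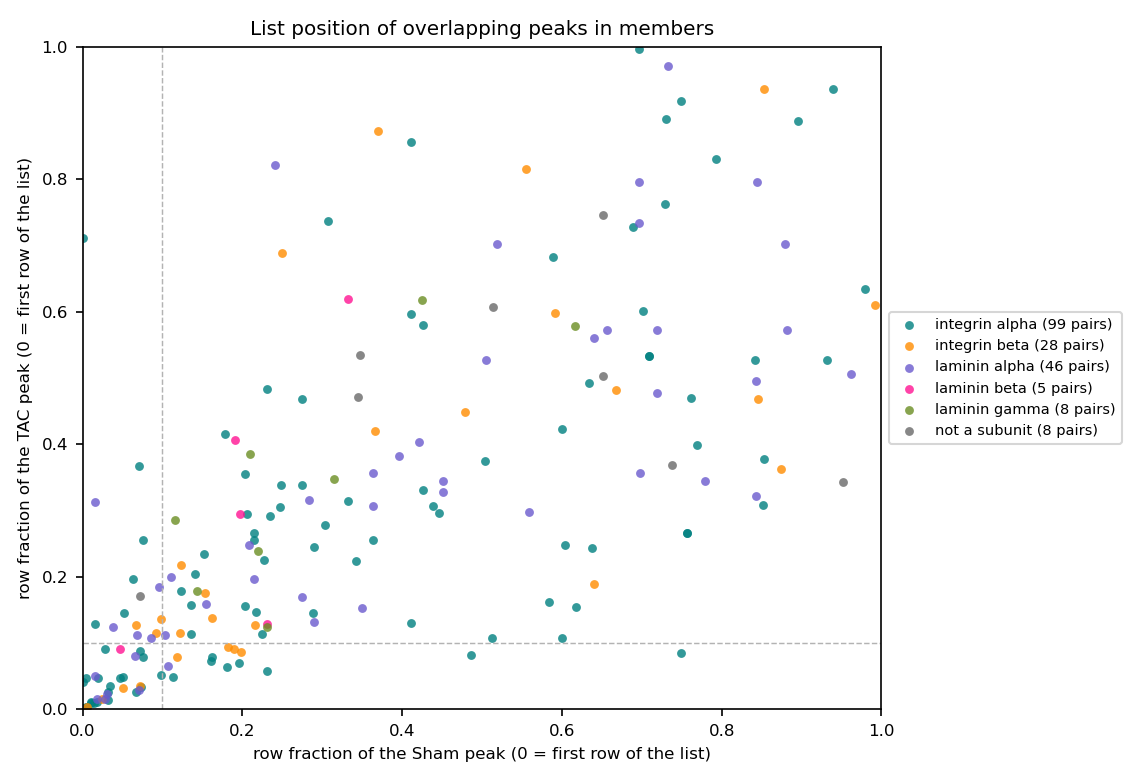
Row fraction of the TAC peak against that of the Sham peak for the 194 overlapping pairs in members, coloured by role, with dashed lines at 10% of each list. In 32 pairs both peaks lie in the first 10%, and the spread widens towards later rows.

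A peak within 1000 bp of either annotated gene end was found in 16 members in TAC (39%, against 25.3% of all genes) and in 16 in Sham (39%, against 24.5% of all genes). Both libraries covered 12 members (29.3%, against 16.5% of all genes), among them Itga3, Itga4, Itga11, Itgal, Itgam, Itgax, Itgb2l, Itgb3, Itgb4, Lamb3 and Lamc1. The TAC list alone covered 4 (9.76%, against 8.86% of all genes) and the Sham list alone another 4 (9.76%, against 7.99% of all genes). The first were Itga1, Itgad, Itgae and Itgav and the second Itga9, Itgb2, Itgb5 and Itgb1bp1. Of these Itga1, Itgad, Itgae and Itgb1bp1 overlap another protein-coding gene. Among members that overlap none, the TAC list alone covered 1 and the Sham list alone 3. No laminin alpha gene was covered at an end in either library. With windows of 500 bp 10 members were covered in each library, and the share of all genes is not given for that window. With the first 50% of rows of each list 15 members were covered in TAC and 9 in Sham, and of all genes 14.4% were covered in TAC and 14.6% in Sham. For 27 members the promoter windows gave the strand. There the 5′ end was covered in 6 genes in TAC and 5 in Sham, and the 3′ end in 3 genes in TAC and 6 in Sham. The share of all genes is not given for these ends, so no difference between the libraries is read from them.

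In 2 of the 8 genes covered in 1 library alone, the other library had an overlapping peak whose edge missed the window. At the 5′ end of Itga1, on the minus strand, the TAC peak chr13:115102370-115103877 was overlapped by a Sham peak at chr13:115103139-115103806. At the 5′ end of Itgav the TAC peak chr2:83723189-83723689 was overlapped by a Sham peak at chr2:83723361-83724114. The other 6 ends had no overlapping peak. Those in TAC were chr7:128204035-128204535 at Itgad and chr11:73147475-73147975 at Itgae. Those in Sham were chr9:118901720-118902220 at Itga9, chr10:77529574-77530205 at Itgb2, chr16:33828518-33829018 at Itgb5 and chr12:21265927-21266427 at Itgb1bp1. All 6 were single peaks of 501 to 632 bp with row fractions of 0.465 to 0.983.

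Genes of the pathway around these receptors were counted by the same rule. The adhesion complex list holds 26 genes for the proteins that join integrin tails to actin and signal there, Itgb1bp1 among them, and they held 209 TAC and 221 Sham peaks, a ratio of 0.946 (0.779 to 1.15). Of its 17 genes with 5 peaks, 2 had at least 1.5-fold more TAC peaks and 4 had fewer, where 23.6% of all such genes had more and 17.2% fewer. Tns1, a tensin, held 20 TAC and 13 Sham peaks, and Vcl, the vinculin gene, 6 TAC and 3 Sham peaks. Ptk2, the focal adhesion kinase gene, held 7 TAC and 13 Sham peaks. Parvg, a parvin of blood cells, held 3 TAC and 6 Sham peaks, and Tln1, a talin that activates integrins, 2 TAC and 3 Sham peaks. The partners of laminin in the basement membrane (10 of 11 listed genes matched) held 82 TAC and 86 Sham peaks, a ratio of 0.953 (0.696 to 1.31). Of 9 such genes with 5 peaks, 3 had more TAC peaks and 2 had fewer, beside the same 23.6% and 17.2% of all such genes. Nid1, the nidogen that links laminin to collagen IV, held 5 TAC and 2 Sham peaks, Col4a2 14 TAC and 9 Sham peaks, and Dag1, the dystroglycan gene, 3 TAC and 2 Sham peaks. Hspg2, the perlecan gene, held 9 TAC and 14 Sham peaks, and Agrn, the agrin gene, 3 TAC and 5 Sham peaks. In both lists the ratio interval included that of all genes.

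Peak lists measure no expression, so the cardiomyocyte label could not be set against marker RNA. Gene ends of cardiomyocyte markers were covered for 5 of 8 genes in each library and those of fibroblast markers for 1 of 6. Those of endothelial markers were covered for 3 of 6 and of leukocyte markers for 4 of 6. Of all genes 25.3% were covered in TAC and 24.5% in Sham. The cardiomyocyte markers held 58 TAC and 34 Sham peaks in their bodies, a ratio of 1.71 (1.10 to 2.69). Ryr2 alone held 31 of these TAC and 20 of these Sham peaks. All 5 cardiomyocyte markers with 5 peaks had at least 1.5-fold more TAC peaks, where 23.6% of all such genes did. The interval of the ratio lay above the 1.07 of all genes and above the 0.999 of all genes under 100 kb. It included the 1.12 of all genes of 100 kb or longer, but the median length of these markers was 23.4 kb. The fibroblast markers held 13 TAC and 9 Sham peaks, a ratio of 1.44 (0.571 to 3.83). The endothelial markers held 41 TAC and 44 Sham peaks, a ratio of 0.932 (0.594 to 1.46). The leukocyte markers held 15 TAC and 8 Sham peaks, a ratio of 1.88 (0.746 to 5.11). By the same margin, 2 of 2 leukocyte markers and 1 of 2 fibroblast markers with 5 peaks had more TAC peaks. Of 6 endothelial markers with 5 peaks, 1 had more and 2 had fewer. The part that other cell types in the preparations have in the member peaks was not tested.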

How the data were processed

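MeDIP-seq peak lists of 1 TAC and 1 Sham library were used. The submitters' processing notes name BWA 0.7.4-r385, HOMER 4.5, Picard and build mm10. The authors called peaks in each library against input with a peak size of 500 bp, at least 4-fold over input and a Poisson p of 1e-04, per the file headers. The tag threshold was 12 in TAC and 11 in Sham, per the file headers, so depth differs between the lists. The score column the authors deposited is 1 for every peak and was not used.

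Peaks were counted per gene in Python 3.11.15 (pandas 2.3.3, scipy 1.17.1) by scripts tested on simulated data. Gene positions came from RefSeq (GRCm38.p6), which gave no strand, and strand came from its promoter table for 27 members. All members but 1, which is not reported here by name, are named, with details for those with at least 10 peaks, past 1.5-fold or covered at an end in 1 library. Members, lists and tests were chosen with earlier results of these data known. Alternatives changed the peak assignment, gene extent, list length, sharing rule, fold and end window.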

Additional observations from a re-analysis of the deposited data

How the results depend on the processing

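No paired analysis was possible because each group has 1 library and the labels give no replicate numbers. Across the alternatives 59 values stayed close to those reported and 12 moved. The TAC to Sham ratio of the members ranged between 0.915, with the TAC list held to as many rows as the Sham list (all genes 0.898), and 1.08, with the first 50% of rows (all genes 1.04), so it crossed 1. With the TAC list so held the integrin beta ratio was 0.897, and with the first 50% of rows the integrin alpha ratio was 1.07, each on the other side of 1 from the value reported. Chosen after seeing the data, it was 1.06 without Itga11 and 1.01 without Itgbl1. Requiring 50% overlap of both peaks lowered sharing to 57.4% in TAC and 59.2% in Sham. With the first 50% of rows 76.9% of Sham peaks were shared, 9 members were covered at an end in Sham, 6 members had more TAC peaks (Itga1, Itgad, Itgae, Itgbl1, Lama2 and Lama4) and 2 had fewer (Lamb3 and Lamc1), which turned the balance of 3 with more and 5 with fewer. With the TAC list held, 2 members had more and 7 fewer TAC peaks, against 864 and 1700 of 6098 genes. Of the members past the fold in the full lists, all but Lama5 were also past it with the TAC list held. With the first 50% of rows Itga1, Itgbl1 and Lamc1 were also past it. Windows of 500 bp gave 10 covered members in TAC and 10 in Sham, and windows of 2000 bp gave 21 in TAC and 26 in Sham. Leaving out members that overlap another gene gave 1 with more and 3 with fewer TAC peaks, and a 2-fold rule gave 3 with fewer. For these settings and the other end windows the share of all genes is not given. The causes of these shifts were not tested beyond what each alternative itself changes. Numbers per gene are small, so differences of a few peaks were not detectable at this depth.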

Other observations

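The ligands of these receptors outside the basement membrane, 15 listed genes, held 80 TAC and 64 Sham peaks, a ratio of 1.25 (0.889 to 1.76). Of 8 such genes with 5 peaks, Edil3, a ligand of the alphav integrins, had at least 1.5-fold more TAC peaks, with 18 TAC and 8 Sham peaks, and 0 had fewer, where 23.6% of all such genes had more and 17.2% fewer. A gene end was covered for 9 of the 15 in TAC and 4 of the 15 in Sham, against 25.3% of all genes in TAC and 24.5% in Sham. The TAC list alone covered Icam2, Ltbp1, Npnt, Nphs1, Spp1 and Tnc, and the Sham list alone covered Vcam1, where 8.86% of all genes were covered in TAC alone and 7.99% in Sham alone. Spp1, the osteopontin gene, held 1 TAC peak and no Sham peak, and Tnc, the tenascin C gene, 5 TAC and 4 Sham peaks. Of the ligand peaks 47.5% in TAC and 57.8% in Sham were shared, against 60.1% in TAC and 63.8% in Sham over all genes.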
